A study of Mus musculus with 75 samples.

Results

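A set of 10 macrophage genes was followed through a series of gut glia libraries: Cx3cr1, Fcrls, Csf1r, C1qa, C1qb, C1qc, Cd163, Mrc1, Lyve1 and Cd68. They are 10 of the 21051 gene symbols in the table of the untreated and 2 h experiments and 10 of the 21076 in the table of the 24 h experiment, and each was found by its symbol in both. The members were chosen by measured values: the set was put together after the Cx3cr1 level had been seen to be low in wild-type small intestine 24 h after LPS (lipopolysaccharide, a bacterial endotoxin). Values of that comparison are therefore given as a description with no test.

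The series holds 75 Smart-seq2 libraries in 16 groups from adult mice, whose age is not given further, and every mouse carried Plp1eGFP, a transgene that labels glia with a green fluorescent protein. Each library is labelled EGC (enteric glial cell). How the labelled cells were separated from the rest of the gut wall is not given in the sources used here. The untreated experiment had 6 libraries each from the myenteric and the submucosal plexus of the small intestine and 5 each from the same plexuses of the colon, all of genotype Plp1eGFP. The 2 h experiment had 4 libraries per group from the myenteric plexus of Plp1eGFP mice that received 1 intraperitoneal injection of PBS or of LPS at 2 mg/kg. The 24 h experiment gave the same injections to Gpr37WT; Plp1eGFP and to Gpr37-/-; Plp1eGFP mice, again with myenteric plexus. Its wild-type groups had 6 libraries for PBS and 4 for LPS in the small intestine, and 4 for PBS and 5 for LPS in the colon. Its Gpr37-/- groups had 4 for PBS and 5 for LPS in the small intestine, and 5 for PBS and 4 for LPS in the colon.

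Muscularis macrophages lie between the muscle layers of the gut wall beside the neurons and glia of the myenteric plexus. Csf1r is the receptor through which the growth factors Csf1 and Il34 keep such macrophages alive. Cx3cr1 is the receptor for fractalkine and a classical label of gut and brain macrophages, and Fcrls is a scavenger receptor with Fc receptor-like domains, best known from microglia. C1qa, C1qb and C1qc encode the chains of C1q, the first component of the classical complement pathway, which tissue macrophages make in quantity. Cd163, a haptoglobin-haemoglobin receptor, and Mrc1, the mannose receptor CD206, are endocytic receptors of resident macrophages. The same genes are also used by macrophages of the submucosa and mucosa, which these libraries do not separate from those of the muscle. Lyve1 is a hyaluronan receptor of a subset of macrophages and also of lymphatic endothelium, and Cd68 is a glycoprotein of lysosomes.

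The stretches before the start of C1qb, Mrc1 and Cd68, 3 members that were higher in submucosal than in myenteric libraries of the small intestine, are printed so that members that went together can be compared. They are RefSeq sequences of GRCm38.p6 from 250 to 23 bases before the start that the RefSeq promoter table gives, on the strand of the gene (plus for Mrc1, minus for the others), written 5′ to 3′, and they overlap no annotated exon. Capitals mark GAGGAA, the core to which the macrophage transcription factor PU.1 (Spi1) is known to bind, on either strand.
C1qb (chr4:136886223-136886450): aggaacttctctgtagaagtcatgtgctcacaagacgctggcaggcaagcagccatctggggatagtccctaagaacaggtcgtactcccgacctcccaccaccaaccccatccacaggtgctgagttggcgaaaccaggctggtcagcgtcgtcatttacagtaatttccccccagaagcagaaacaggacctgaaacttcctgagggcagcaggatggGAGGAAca
Mrc1 (chr2:14229164-14229391): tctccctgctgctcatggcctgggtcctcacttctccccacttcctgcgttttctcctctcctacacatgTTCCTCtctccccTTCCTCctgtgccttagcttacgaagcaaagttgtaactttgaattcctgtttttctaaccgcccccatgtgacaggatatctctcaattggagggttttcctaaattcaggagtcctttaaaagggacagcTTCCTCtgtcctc
Cd68 (chr11:69666193-69666420): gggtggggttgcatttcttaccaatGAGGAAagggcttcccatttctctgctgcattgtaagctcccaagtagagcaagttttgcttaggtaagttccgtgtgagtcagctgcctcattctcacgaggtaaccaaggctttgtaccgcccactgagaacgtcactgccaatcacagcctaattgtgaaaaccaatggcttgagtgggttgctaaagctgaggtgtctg
The C1qb and Cd68 windows each hold 1 match and the Mrc1 window holds 3. Of the other members with a window, C1qc and Fcrls had 1 each and Cx3cr1 and Cd163 had 0. GAGGAA was present in 21.17% of 32851 windows of this length across all genes, so a match is a description of the letters and no more. The C1q genes form a cluster on chromosome 4, with C1qb at 136880126 to 136886200, C1qc at 136889801 to 136892936 and C1qa at 136895916 to 136898844.

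Libraries held 2547296 to 9002546 counts in the untreated, 1990744 to 7883251 in the 2 h and 2882539 to 33283346 in the 24 h experiment. The glial transcription factor gene Sox10 was at 186 to 888 CPM (counts scaled to equal library totals) in untreated myenteric libraries and at 11.1 to 248 CPM in submucosal ones. In the knockout, Gpr37 was at 0 to 0.802 CPM in all 18 libraries. In wild-type libraries it was at 6.50 to 17.4 CPM (PBS, small intestine), 3.18 to 13.3 (PBS, colon), 0 to 13.1 (LPS, small intestine) and 0 to 8.37 (LPS, colon). Some libraries stood apart. The untreated colon submucosal library M3 had Ptprc, the leukocyte gene CD45, at 4.94 CPM against 183 to 274 in the other 4 of its group, and Sox10 at 248 CPM, the highest of the submucosal libraries. Among 24 h colon libraries, the colon position gene Hoxa10 was at 0 CPM in wild-type LPS mouse 5 and at 0.536 CPM in Gpr37-/- LPS mouse 2, within the 0 to 2.86 CPM of the small intestine. Gpr37-/- PBS mouse 1 had Hoxa10 at 4.01 CPM, and mouse 7 of that group had Hoxa11os at 0 CPM. Colon is used for these libraries as their label only.

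Most calls among the 10 genes were between plexuses. Untreated submucosal libraries held far more macrophage transcript than myenteric libraries in either region, and Lyve1 was the exception in the colon. In the colon 7 members were higher and 1 was lower in the submucosal plexus, where 21.8% of all 14090 genes tested were called, 10.7% as higher and 11.1% as lower. In the small intestine 8 members were higher and 0 were lower, where 43.5% of all genes were called, 22.3% as higher. A call here is an adjusted p under 0.05 in edgeR's quasi-likelihood F-test, with Benjamini-Hochberg correction across every gene tested in the experiment. With the replicate number as a block 0 members were called in the colon, at edgeR adjusted p of 0.0581 to 0.275 for those 8, and the genes called went from 3069 to 93. The members' median log2 difference was 3.17 for the colon and 2.67 for the small intestine, against -0.01 and 0.06 over all genes.

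Among the receptors, Csf1r was at 27.2 to 60.9 CPM in the 5 colon myenteric libraries, and at 25.8, 277, 437, 502 and 682 CPM in the submucosal ones. The lowest submucosal value was library M3, which alone overlapped the myenteric range. The log2 difference was 3.20 ± 0.70 (SE; edgeR adjusted p = 0.00287), and 2.69 ± 0.62 (edgeR adjusted p = 0.00143) in the small intestine. Cx3cr1 was at 0.302, 10.7, 19.3, 27.3 and 36.5 CPM in colon myenteric libraries and at 2.85, 191, 209, 252 and 328 CPM in submucosal ones. It was again only M3, at 2.85 CPM, that lay within the myenteric range. Its log2 difference was 3.37 ± 0.99 (edgeR adjusted p = 0.0186) in the colon. Cx3cr1 in the small intestine was 2.46 ± 0.86 higher on the log2 scale (edgeR adjusted p = 0.0251), a call that ended without myenteric M2 or M3 or submucosal F2. Fcrls had log2 differences of 2.31 ± 0.98 (colon) and 1.41 ± 0.86 (small intestine), with edgeR adjusted p of 0.0943 and 0.193.

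The C1q genes moved as a block. C1qa was at 10.3, 33.7, 41.5, 87.4 and 153 CPM in colon myenteric libraries and at 16, 524, 557, 627 and 1145 CPM in submucosal ones, M3 again being the low one. C1qb in the small intestine ran from 53.8 to 565 CPM in the myenteric and from 612 to 3378 CPM in the submucosal plexus, with medians of 212 and 2022, and the plexuses did not overlap, as 13.4% of genes did not with submucosal higher. The log2 differences of C1qa, C1qb and C1qc were 3.13, 3.33 and 3.32 in colon and 3.12, 2.99 and 2.88 in small intestine. Their edgeR adjusted p ran from 0.00146 to 0.0105. Cd68 was at 1.53 to 8.26 CPM in colon myenteric libraries and at 5.32, 86.4, 104, 136 and 221 CPM in submucosal ones. Its log2 difference of 4.71 ± 0.87 was the largest of the 10 there (edgeR adjusted p = 0.000933). The Cd68 difference in the small intestine was 2.74 ± 0.71 (edgeR adjusted p = 0.00364).

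Of the endocytic receptors, Cd163 was at 0, 0, 0.164, 2.3 and 4.03 CPM in the colon myenteric plexus and at 4.82, 7.03, 8.14, 10.6 and 28.8 CPM in the colon submucosal plexus. The plexuses did not overlap, as 5.46% of genes did not with submucosal higher, and the log2 difference was 3.06 ± 0.96 (edgeR adjusted p = 0.0268). That call ended without myenteric M1, M2 or F2 or submucosal F2, and in a fit of the compared groups only. Cd163 in the small intestine was 2.65 ± 0.80 higher in the submucosal plexus (edgeR adjusted p = 0.0103), again with no overlap. Mrc1 was 2.33 ± 0.69 higher in the small intestine (edgeR adjusted p = 0.00935), and 2.09 ± 0.76 in the colon with an edgeR adjusted p of 0.0512.

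Markers of other leukocytes moved with the members. All 12 shared myeloid genes, such as Lyz2 and Ptprc, were higher in the submucosal plexus of both regions. So were all 8 lymphocyte genes, whose summed level was at most 1089 CPM in any myenteric library and 729 to 131862 CPM in submucosal ones. Monocyte genes summed to 97.9 to 182 CPM in myenteric and 670 to 1778 CPM in submucosal colon libraries. In the small intestine they summed to 62.7 to 125 and 957 to 1645 CPM. For dendritic cell genes the median sums were 9.35 and 141 CPM in the colon and 19.0 and 176 CPM in the small intestine, myenteric first. Of 20 resident macrophage genes tested, 8 including Ms4a7 were higher in submucosal colon libraries and 11 in submucosal small intestine ones, and 0 were lower. Of 10 glial genes, 5 were lower for the colon and 9 for the small intestine. Epithelial genes moved with the members too, with a median summed level of 28.5 CPM in myenteric and 1493 CPM in submucosal libraries of the small intestine, and of 66.8 and 2807 CPM in those of the colon. Of these 7 genes, 6 were higher for the small intestine and 2 for the colon. Mitochondrial genes took 11.6 to 18.8% of counts in myenteric and 2.84 to 9.43% in submucosal small intestine libraries, and 5.35 to 16.5% and 4.02 to 7.18% in those of the colon. What part the mix of cells or the mitochondrial share had in the members' differences was not tested. In bulk libraries such as these, more cells of a type and more RNA per cell cannot be told apart. Without library M3 all 10 members were called in the colon, where 3129 genes were called. Lyve1 was lower and the others were higher, with Csf1r at 3.51 (edgeR adjusted p = 0.00035) and Cd68 at 5.02 (edgeR adjusted p = 0.000152). M3 was set apart in part by its low Ptprc, whose Spearman's rho with the members' mean level was 0.93 in untreated libraries. Its omission therefore drew on values that go with the members.

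**Figure D1:**
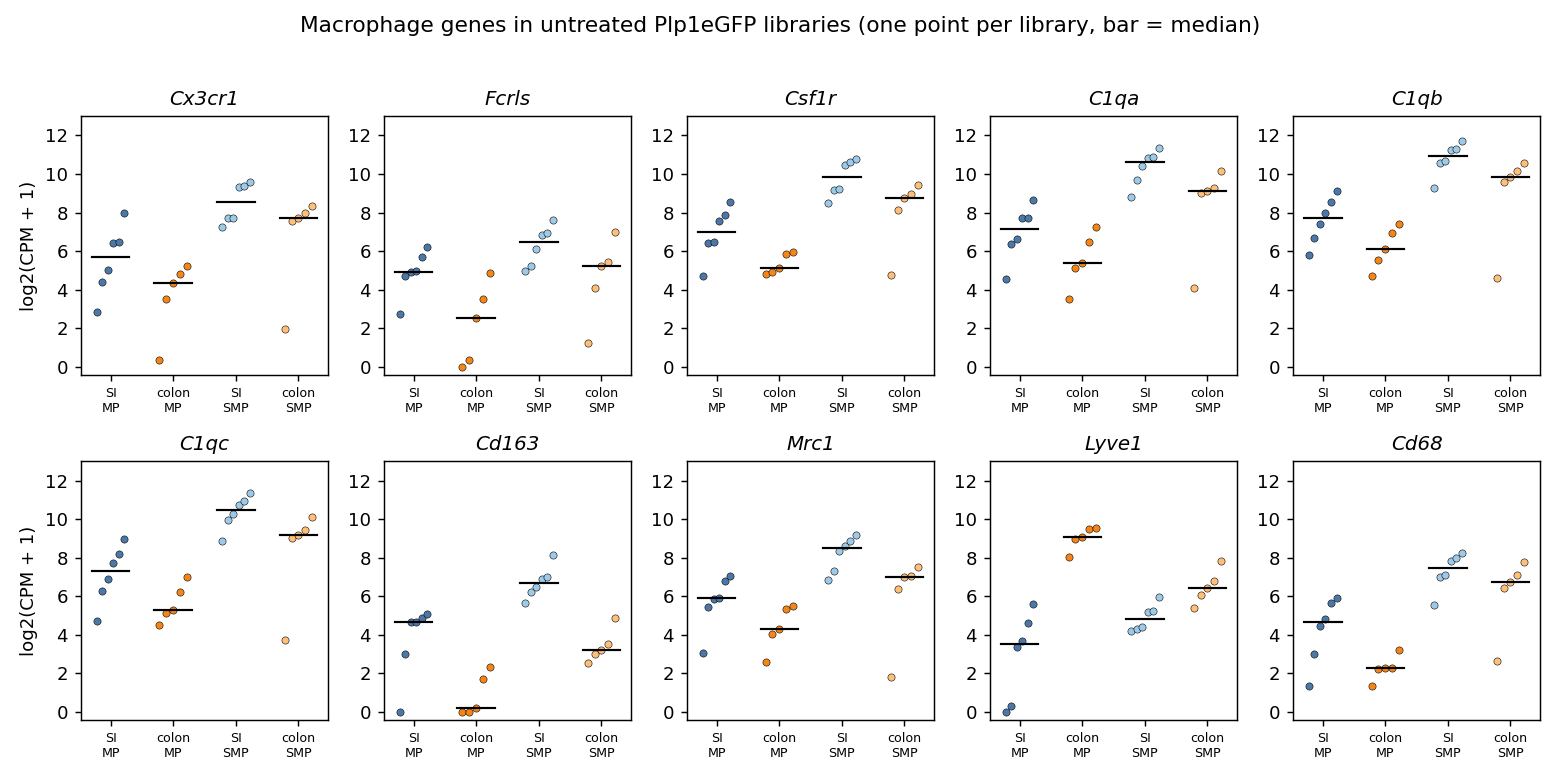
Level of each of the 10 genes, as log2(CPM + 1), in every untreated library of the small intestine (SI) and colon myenteric (MP) and submucosal (SMP) plexus, 1 point per library. For every gene except Lyve1 in the colon, the submucosal median lies above the myenteric median of the same region. Colon submucosal library M3 lies low for most genes, but not for Cd163 and Lyve1. Cd163 is at 4.82 to 28.8 CPM in colon submucosal and 0 to 33.2 CPM in small intestine myenteric libraries. Lyve1 is highest in the colon myenteric plexus, at 265 to 732 CPM.

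Between regions, within the myenteric plexus, Lyve1 was higher in the colon and Cd163 was lower. These were 2 of 10 members called, where 3.19% of all genes were called, 1.66% as higher and 1.53% as lower. Lyve1 was at 265, 492, 544, 705 and 732 CPM in the 5 colon libraries and at 0 to 47.7 CPM, with a median of 10.6, in the 6 of the small intestine. The regions did not overlap, as 1.18% of all genes did not with colon higher. Mean levels were 548 ± 188 CPM (SD, n = 5) and 15.4 ± 18.0 CPM (SD, n = 6), and the log2 difference of 5.13 ± 0.83 had an edgeR adjusted p of 0.00241. The call held without each of the 11 libraries, at 4.82 to 5.86.

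Cd163 went the other way. Its colon myenteric values, 0 to 4.03 CPM, stood against 0 to 33.2 CPM with a median of 24.7 in the small intestine, where 1 library at 0 overlapped the colon. The log2 difference was -3.78 ± 0.96 (edgeR adjusted p = 0.0346), and it was no longer called without colon M1, M2, M3 or F2 or small intestine M2, F1 or F2. Nor was it called in a fit of the compared groups only or with the replicate block, at edgeR adjusted p of up to 0.209. In the submucosal plexus Cd163 was the only member called between regions, where 5.18% of all genes were called, 1.36% as lower. There it was at 4.82 to 28.8 CPM in the colon and 50.1 to 279 CPM in the small intestine. These did not overlap, as 2.29% of genes did not with colon lower, and gave a log2 difference of -3.37 ± 0.89 (edgeR adjusted p = 0.0292). That call ended without colon M1, M3, F1 or F3 or small intestine F2, and without M3 the value was -3.23 with an edgeR adjusted p of 0.0832.

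The 8 other members had lower means in colon than in small intestine myenteric libraries without passing the test. Cd68, at 4.27 against 27.7 CPM, had a log2 difference of -2.71 ± 0.80 (edgeR adjusted p = 0.0634), and Csf1r, at 41.7 against 164 CPM, one of -1.97 ± 0.65 (edgeR adjusted p = 0.0991). Cx3cr1 differed by -2.07 ± 0.92 and the C1q genes by -1.78 to -1.38, with edgeR adjusted p of 0.219 to 0.383. In the submucosal plexus Lyve1 was at 40.8, 67, 85, 110 and 231 CPM in the colon and 17.6 to 62.1 CPM in the small intestine, a log2 difference of 1.74 ± 0.74 (edgeR adjusted p = 0.203).

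The regional difference of Lyve1 was also measured in mice injected with PBS. At 2 h it was at 56.9, 111, 236 and 279 CPM in the colon and at 1.95, 3.21, 9.58 and 15.7 CPM in the small intestine. The regions did not overlap, as 3.21% of genes did not with colon higher. The log2 difference was 4.44 ± 1.04, but the edgeR adjusted p was 0.0807, and 0 of 10 members were called there against 0.221% of all genes. At an unadjusted p under 0.05 there were 1 member and 10.6% of genes, and DESeq2 called Lyve1 among the 500 genes that it called. At 24 h wild-type PBS colon libraries had 262, 308, 615 and 865 CPM and small intestine ones 5.93 to 46.6 CPM with a median of 17.7. Again the regions did not overlap, as 3.03% of genes did not with colon higher, with a log2 difference of 4.69 ± 0.95 (edgeR adjusted p = 0.0242). Lyve1 was the only member called, where 0.141% of all genes were called and 0.0939% as higher, and the call ended without colon mouse 22 or 24 or small intestine mouse 9, 14, 19, 22 or 23. In Gpr37-/- PBS mice the colon libraries had 3.64, 88.1, 209, 483 and 587 CPM and the small intestine ones 0.397, 6.25, 14.2 and 24.2 CPM. They overlapped through mouse 1, whose Hoxa10 is given above, and the difference of 4.60 ± 1.11 had an edgeR adjusted p of 0.133. None of 10 members was called there by edgeR, where 0.0805% of all genes were, while DESeq2 called Lyve1 among the 156 genes that it called. There 1 member and 6.66% of genes had an unadjusted p under 0.05, and without mouse 1 edgeR again called 0.

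In the colon Lyve1 was also lower in the submucosal than in the myenteric plexus, with a log2 difference of -2.36 ± 0.79 (edgeR adjusted p = 0.037). The plexuses did not overlap, as 7.15% of genes did not with submucosal lower, and the sign was opposite to that of the other 9 members. The call ended without any of myenteric M1, M2, M3 and F2 and submucosal M1, F1, F2 and F3. The small intestine difference was 1.02 ± 0.71 (edgeR adjusted p = 0.255).

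Genes of lymphatic endothelium moved with Lyve1. Ccl21a, a chemokine of lymphatic vessels, was at 591 to 2807 CPM in colon myenteric libraries and 0.890 to 63.5 CPM in those of the small intestine. Its log2 difference between these was 6.10 ± 0.88 (edgeR adjusted p = 0.001). Prox1, the transcription factor of lymphatic identity, differed by 4.12 ± 1.14 (edgeR adjusted p = 0.0491), and Reln, the secreted protein reelin, by 3.95 ± 0.69 (edgeR adjusted p = 0.00474). Other genes of the gut wall were higher in colon myenteric libraries too. The smooth muscle genes Cnn1 and Tagln differed by 2.90 and 2.38, and the interstitial gene Kit by 3.23 (edgeR adjusted p of 0.0277, 0.0396 and 0.0225). Neuronal genes such as Elavl4, at -3.83, were lower. Within the 10 untreated colon libraries Spearman's rho between Lyve1 and the lymphatic genes Prox1, Flt4, Mmrn1, Ccl21a and Reln was 0.90 to 0.98, while with the other 9 members it was -0.95 to -0.60. Within the 12 untreated small intestine libraries the same ranges were 0.47 to 0.83 and -0.06 to 0.31. Within the 18 colon libraries at 24 h they were 0.72 to 0.87 and -0.41 to 0.38, and blood and pan-endothelial genes were at 0.55 to 0.84 there. In the 19 small intestine libraries at 24 h the lymphatic genes were at -0.03 to 0.75 and the other members at -0.49 to 0.31. At 2 h they were at 0.33 to 0.81 and -0.52 to 0.14 (colon, n = 8) and at -0.02 to 0.81 and -0.21 to 0.57 (small intestine, n = 8), so the separation of these ranges was not present in every experiment and region. Within colon libraries Ccl21a and the pan-endothelial gene Cdh5 had the same rho with Lyve1, 0.81, at 2 h, and 0.74 and 0.65 at 24 h. These correlations are descriptions over libraries that share plexus, treatment and depth differences. The part of lymphatic endothelial cells in the Lyve1 values was not tested.

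**Figure D2:**
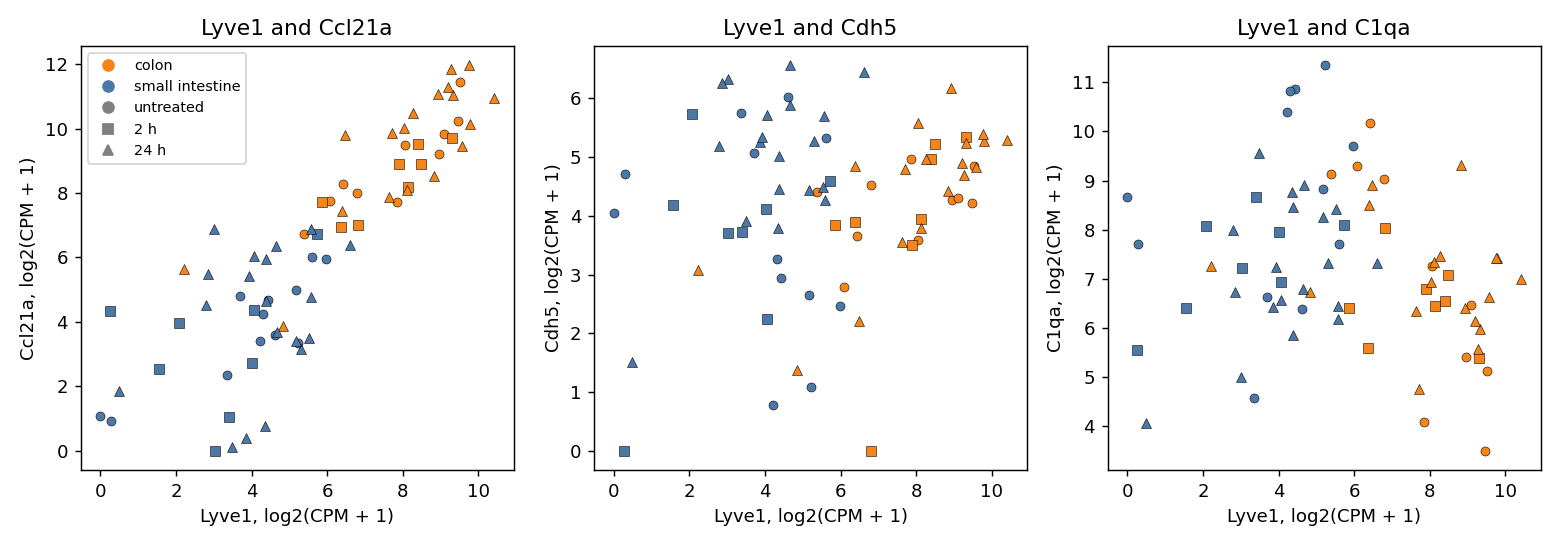
Lyve1 against Ccl21a (lymphatic endothelium), Cdh5 (all endothelium) and C1qa (macrophages), each as log2(CPM + 1), with 1 point per library, orange for colon and blue for small intestine, and circles, squares and triangles for untreated, 2 h and 24 h. Lyve1 rises with Ccl21a, with a Spearman's rho over both regions of 0.95 in the untreated, 0.90 in the 2 h and 0.82 in the 24 h libraries, against 0.02, 0.31 and 0.06 for Cdh5. Of the blood and pan-endothelial genes, Cdh5 had the lowest rho in the untreated and 24 h libraries. The highest were 0.40 for Kdr (untreated), 0.50 for Tek (2 h) and 0.42 for Emcn (24 h).

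Per length of the gene model, the C1q genes were the most abundant of the 10 where macrophage transcript was high. In small intestine submucosal libraries mean levels were 1842 CPM per kilobase for C1qb, 1426 for C1qa and 773 for C1qc. Csf1r followed at 182 CPM per kilobase, then Cd68 at 146, Cx3cr1 at 97.7, Mrc1 at 53.6, Fcrls at 40.7, Cd163 at 22.6 and Lyve1 at 10.9. In the colon myenteric plexus Lyve1 came first, at 188 CPM per kilobase, ahead of C1qb at 79.7 and C1qa at 62.7, and Cd163 was last at 0.238. Cx3cr1 was at 4.17, Mrc1 at 3.87, Fcrls at 3.79 and Cd68 at 3.40 CPM per kilobase there. These 4 neighbours did not differ beyond the spread of the libraries, with Cx3cr1 at 18.8 ± 14.1 CPM and Mrc1 at 24.7 ± 16.7 CPM (SD, n = 5). Across sites, Cx3cr1 per kilobase was at 4.17 in colon myenteric, 17.8 in small intestine myenteric, 43.7 in colon submucosal and 97.7 in small intestine submucosal libraries.

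At 2 h after LPS no member passed the test in either region. In the small intestine 0 of 10 members were called by edgeR and 0 by DESeq2, where 1.1% of all genes were called, and 0 members against 5.2% of genes had an unadjusted p under 0.05. In the colon 0 were called by either tool where 0.778% of all genes were called, and 1 member against 7.53% of genes had an unadjusted p under 0.05. Cx3cr1 had the lowest fold change of the 10 in both regions. After PBS in the small intestine it was at 14.6, 36.7, 78.9 and 142 CPM, and after LPS at 0, 8.06, 26.9 and 29.7 CPM, a log2 difference of -2.07 ± 1.19 (edgeR adjusted p = 1). In the colon it was at 38, 43.9, 46.7 and 127 CPM after PBS and at 0.223, 0.802, 7.8 and 27.4 CPM after LPS. The colon groups did not overlap, as 1.6% of genes did not with LPS lower, and the log2 difference was -2.82 ± 1.24 (edgeR adjusted p = 0.599). The interaction of LPS with region was -0.75 ± 1.64 for Cx3cr1 (edgeR adjusted p = 1), and 0 of 10 members and 0% of genes were called for it. At an unadjusted p under 0.05 there were 0 members and 3.45% of genes, and DESeq2 called 0 members.

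The other members overlapped between PBS and LPS at 2 h. The members' median log2 difference was -0.23 for the small intestine and -0.79 for the colon, against -0.02 and 0.00 over all genes. Fcrls in the small intestine was at 15.1, 22.1, 39.5 and 76.9 CPM after PBS and at 0, 37.7, 58.8 and 61.1 CPM after LPS, a log2 difference of 0.03 ± 1.38. In the colon Fcrls was at 3.96, 7.34, 11.7 and 46.9 CPM after PBS and at 0, 0, 15.4 and 25.5 CPM after LPS. The remaining members had log2 differences between -0.57 and 1.25 in the small intestine and between -1.14 and 1.05 in the colon, Lyve1 being the highest in both, though in the small intestine it was at -0.03 without LPS replicate 3. Of the genes that act on these macrophages, Csf1, the ligand of Csf1r, rose in both regions at 2 h. Its mean level was 243 against 32.4 CPM in the small intestine (log2 difference 2.91 ± 0.49, edgeR adjusted p = 0.00339) and 182 against 36.9 CPM in the colon (2.30 ± 0.48, edgeR adjusted p = 0.0293). Csf1 was the only one called of the 9 listed CSF1R ligands and macrophage transcription factors in either region at 2 h. Slc40a1, the iron exporter ferroportin, was the only resident macrophage gene called at 2 h, of 19 tested. It was at least 63.7-fold lower after LPS in the small intestine (28.7 CPM after PBS, edgeR adjusted p = 0.0227).

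**Figure D3:**
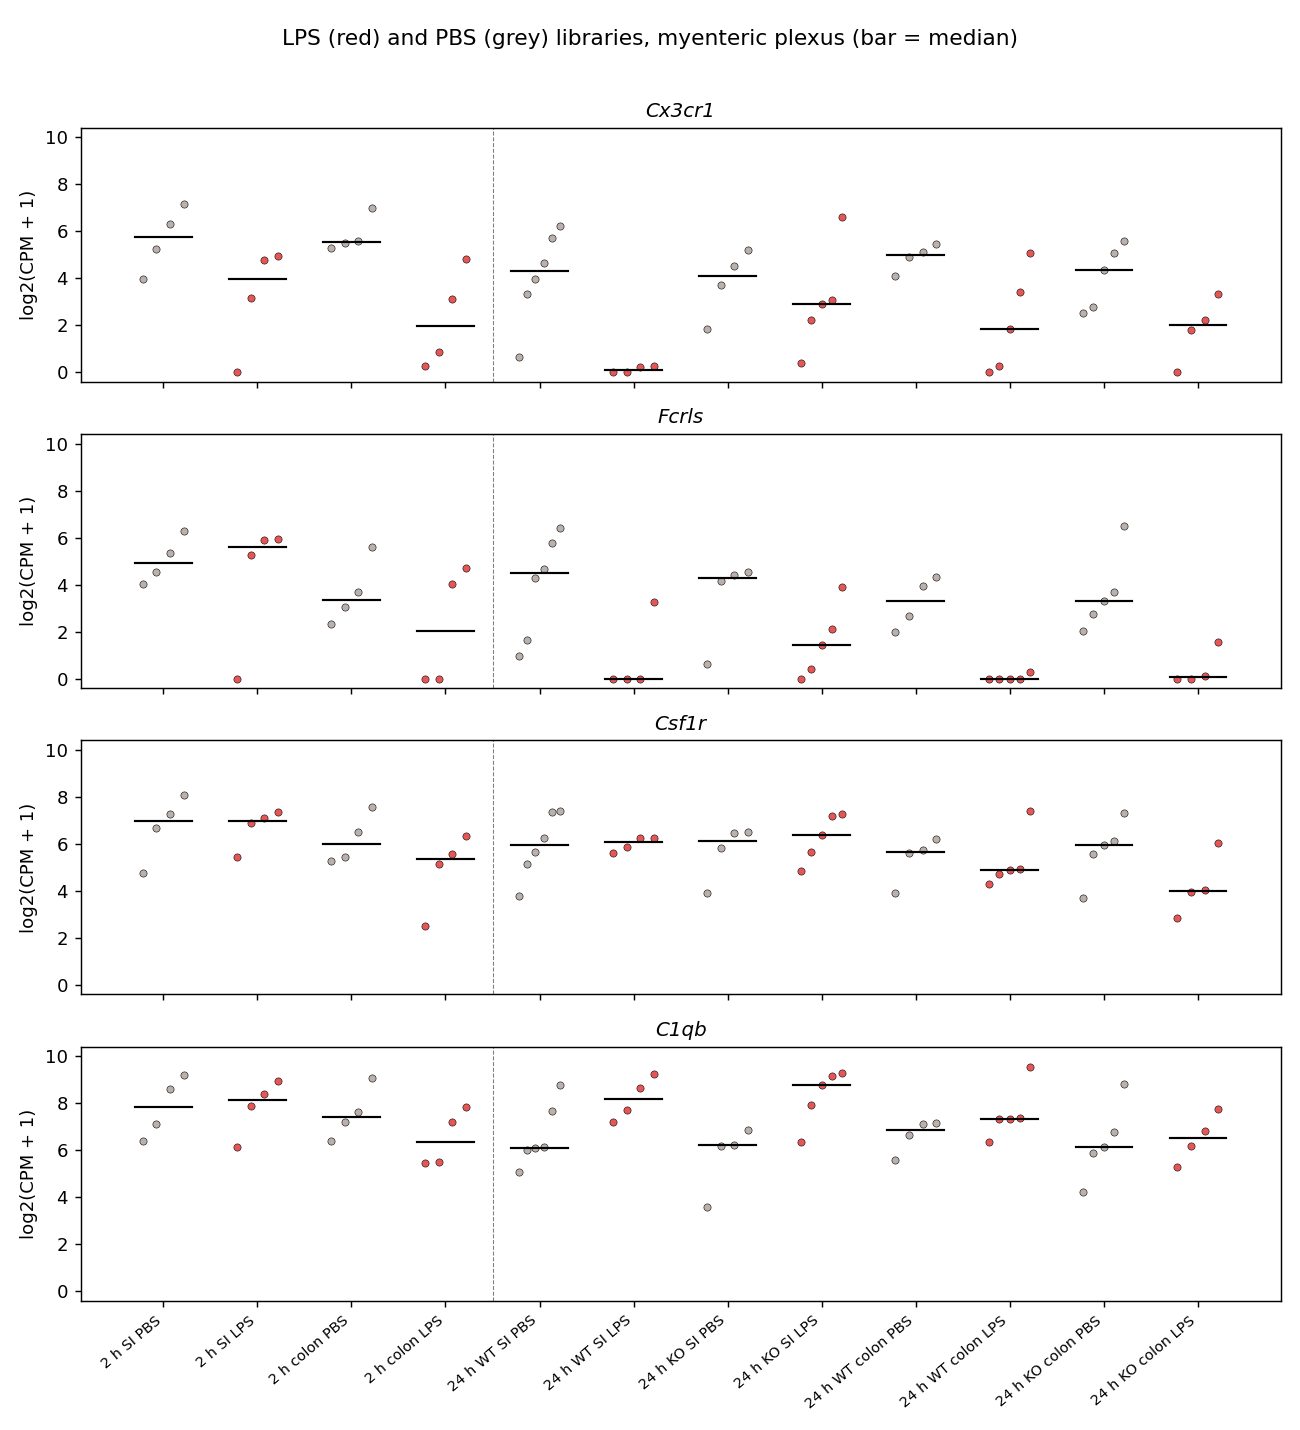
Cx3cr1, Fcrls, Csf1r and C1qb in each PBS (grey) and LPS (red) library at 2 h and 24 h by region and genotype, as log2(CPM + 1). LPS points of Cx3cr1 lie low in wild-type small intestine at 24 h, between 0 and 0.212 CPM, while those of C1qb, at 144 to 604 CPM, do not.

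At 24 h in wild-type small intestine, the comparison from which the set was chosen, Cx3cr1 was at 0.562 to 73.5 CPM (median 19.4) in the 6 PBS libraries and at 0, 0, 0.182 and 0.212 CPM in the 4 LPS libraries. Every LPS library lay below the lowest PBS library, as for 7.21% of genes. Fcrls was at 0.937 to 83.4 CPM (median 21.6) after PBS and at 0, 0, 0 and 8.57 CPM after LPS, the last being mouse 8, and the groups overlapped through that library. C1qb was at 32.6 to 436 CPM (median 68.1) after PBS and at 144, 209, 397 and 604 CPM after LPS. Csf1r was at 12.7 to 167 CPM (median 62.2) after PBS and at 47.7, 58, 75.1 and 75.3 CPM after LPS, inside the PBS range. Mean levels were 2.14 against 30.6 CPM for Fcrls and 339 against 146 CPM for C1qb, LPS first. The fitted log2 differences of the other members were -0.39 for Csf1r, 0.20 for C1qa, -0.06 for C1qc, -0.20 for Cd163, -1.37 for Mrc1, 1.08 for Lyve1 and 0.84 for Cd68. In this comparison 7.17% of all genes were called, 2.99% as lower. Cx3cr1 was among them, which the choice of the set fixes, and nothing is read from it.

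In wild-type colon at 24 h, Fcrls was the member that fell. It was at 3.02, 5.45, 14.3 and 19.2 CPM in the PBS libraries and at 0, 0, 0, 0 and 0.236 CPM in the LPS libraries, where the only count above 0 was in mouse 3. The groups did not overlap, as 9.13% of all genes did not with LPS lower. Fcrls was at least 15.1-fold lower after LPS, with LPS set at the floor of 3 counts per library (edgeR adjusted p = 0.0185). The call held without each of the 9 libraries and under 7 other settings, at edgeR or DESeq2 adjusted p up to 0.0462, and without mouse 5 the edgeR adjusted p was 0.0362. It was the only one of 10 members called, where 7.96% of all genes were called, 4% as lower. Fibroblast and interstitial genes moved with it, their summed level being 13623 to 22062 CPM after PBS and 672 to 8653 CPM after LPS. Of these mice, 3 of 5 given LPS and 0 of 4 given PBS were numbered 10 or below, and with mice numbered 11 and above alone the edgeR adjusted p of Fcrls was 0.0462. The part of either in the Fcrls difference was not tested.

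Cx3cr1 did not pass the test in wild-type colon. It was at 16, 29.1, 33.6 and 43.6 CPM after PBS and at 0, 0.227, 2.64, 9.83 and 33 CPM after LPS, and mouse 3 at 33 CPM alone reached the PBS range. The log2 difference was -1.75 ± 1.22 (edgeR adjusted p = 0.393). C1qb was at 46.5, 97.9, 137 and 144 CPM after PBS and at 79.6, 159, 159, 166 and 744 CPM after LPS (1.30 ± 0.81, edgeR adjusted p = 0.332). Mouse 3 was also the library with the highest C1qb. Cd163 and Cd68 had log2 differences of 2.61 ± 1.33 and 1.81 ± 1.00, with edgeR adjusted p of 0.222 and 0.264. Both rested on mouse 3, without which they were 0.66 and 0.28, C1qb was at 0.41 and Cx3cr1 was then at -3.33 (edgeR adjusted p = 0.138). Csf1r, C1qc, Mrc1 and Lyve1 lay between -0.48 and 0.22. C1qa was 0.84 higher without passing the test, and 0.01 higher without mouse 3.

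In Gpr37-/- mice no member passed the test 24 h after LPS. In the small intestine 0 of 10 were called by edgeR, where it called 0.718% of all genes. DESeq2 called 1, C1qb, among the 527 genes that it called. At an unadjusted p under 0.05 there were 4 members and 11.5% of genes. C1qb was at 10.8, 72.3, 74.5 and 115 CPM after PBS and at 80.3, 239, 440, 572 and 615 CPM after LPS. Of the LPS libraries, 1 lay within the PBS range. The log2 difference was 2.51 ± 0.86 (edgeR adjusted p = 0.179). C1qa, at 385 against 95.0 CPM, differed by 2.02 ± 0.83 and C1qc by 1.76 ± 0.81, with edgeR adjusted p of 0.302 and 0.383. Cd68 was at 0.661, 8.71, 12.8 and 15.2 CPM after PBS and at 24.1, 33.5, 50, 55.9 and 82.3 CPM after LPS, with no overlap (2.39 ± 1.03, edgeR adjusted p = 0.339). Without overlap and with LPS higher were 3.09% of all genes.

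Cx3cr1 was above the floor of 3 counts in 4 of 5 Gpr37-/- small intestine libraries after LPS. It was at 0.321, 3.72, 6.44, 7.41 and 96.8 CPM, against 2.65, 12.1, 21.9 and 35.8 CPM after PBS. The highest of these was mouse 11, and 3 of the other 4 lay within the PBS range. The log2 difference was 0.35 ± 1.21 (edgeR adjusted p = 0.968), and it turned to -1.93 without mouse 11 (edgeR adjusted p = 0.524). Fcrls was at 0.529, 17.1, 20.3 and 22.3 CPM after PBS and at 0, 0.321, 1.68, 3.34 and 13.8 CPM after LPS (-1.93 ± 1.36, edgeR adjusted p = 0.66), and mouse 11 was again the highest.

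In Gpr37-/- colon Fcrls was at 3.03, 5.67, 8.92, 11.9 and 88.1 CPM after PBS and at 0, 0, 0.0806 and 1.95 CPM after LPS. The groups did not overlap, as 1.37% of all genes did not with LPS lower, but the log2 difference of -5.55 ± 1.75 had an edgeR adjusted p of 0.155. None of 10 members was called by edgeR, where 0.718% of all genes were. DESeq2 called 1, Fcrls, among the 474 genes that it called, and 1 member against 12.4% of genes had an unadjusted p under 0.05. Cx3cr1 was at 4.78, 5.97, 19.3, 32.7 and 47.1 CPM after PBS and at 0, 2.5, 3.75 and 9.16 CPM after LPS (-2.50 ± 1.32, edgeR adjusted p = 0.447). The remaining members had log2 differences between -1.48, for Csf1r, and 1.37, for Lyve1. Without mouse 1, 2 or 7, each left out in turn, edgeR again called 0 members, but without mouse 7 the Cd68 difference turned from -1.01 to 1.83 and that of C1qc from -0.81 to 0.42. The members' median log2 difference after LPS was 1.31 in Gpr37-/- small intestine and -0.58 in Gpr37-/- colon, against -0.05 and -0.07 over all genes, and 0.21 in wild-type colon, against -0.03.

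**Figure D4:**
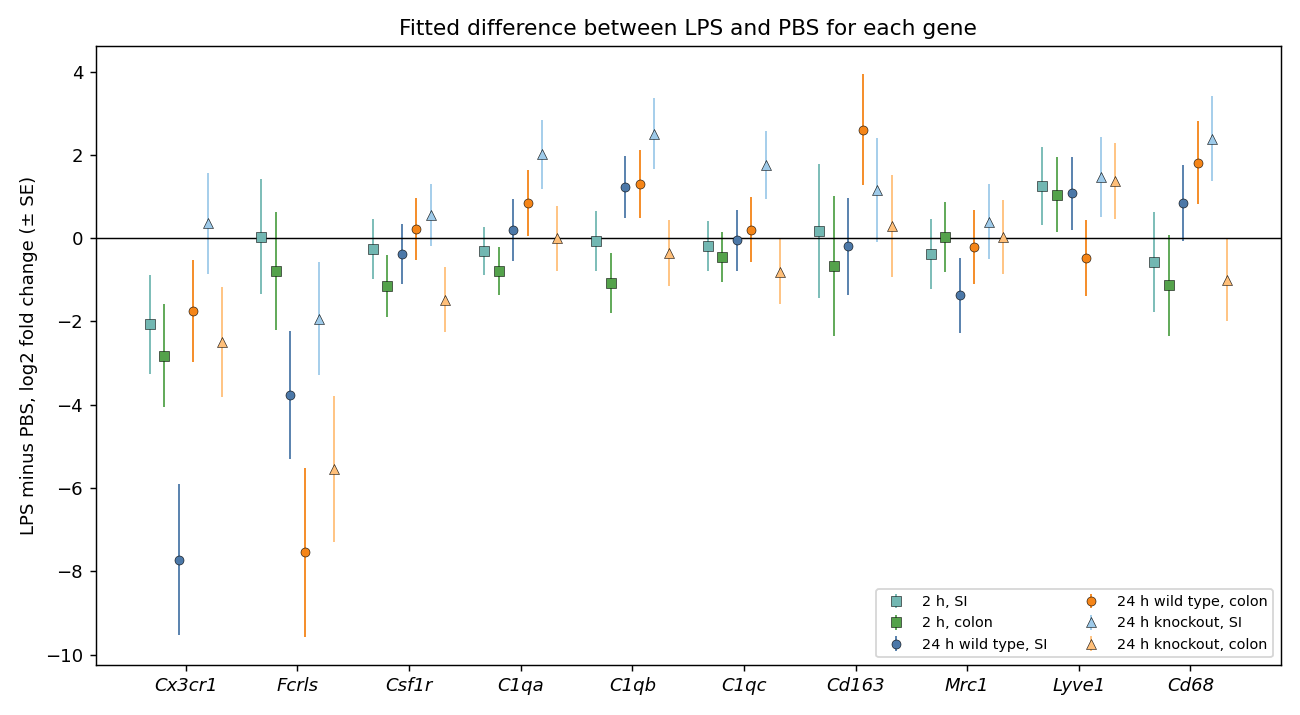
Fitted log2 fold change of LPS over PBS, with its SE, for the 10 genes in 6 comparisons of time, region and genotype. The 2 lowest values are those of Cx3cr1 in wild-type small intestine, at -7.72, and Fcrls in wild-type colon, at -7.55, and these depend on the prior count and are no bound, since their LPS libraries had at most 3 counts.

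The difference between genotypes in the LPS response was fitted as an interaction. In the small intestine this interaction contains the comparison from which the set was chosen, so its values are a description with no test. The fitted value of Cx3cr1 was 8.07 on the log2 scale (Gpr37-/- minus wild type), a size that the choice of the set largely fixes and that depends on the prior count and on Gpr37-/- LPS mouse 11, without which it was 5.75. The other 9 members lay between 0.39 and 1.84. After PBS, in libraries that this interaction shares, all 10 were below 0 between the same genotypes, from -1.13 to -0.43. Of all genes 0% were called by edgeR, and 3.88% had an unadjusted p under 0.05. In the colon the Fcrls interaction was 2.00 ± 2.48 (edgeR adjusted p = 0.787) and that of Cd68 was -2.82 ± 1.40 (edgeR adjusted p = 0.376). Single libraries carried both, since without Gpr37-/- PBS mouse 7 the Cd68 value was 0.00 and without Gpr37-/- LPS mouse 17 the Fcrls value was -1.28. There 0 of 10 members and 0% of genes were called, 0 members against 13.5% of genes had an unadjusted p under 0.05 and DESeq2 called 0. Between the colon and the small intestine of wild-type mice, the fitted LPS differences of Cx3cr1 and Fcrls were 5.97 and -3.78 apart, the latter turning to 3.60 without small intestine LPS mouse 8. That interaction too contains the comparison that chose the set, so these are descriptions, in a fit where edgeR called 0% of genes and 7.56% had an unadjusted p under 0.05. After PBS the genotypes were not distinguishable at these sample sizes. All members had an edgeR adjusted p of 1 in both regions, with 0% of genes called and 0 members by DESeq2. At an unadjusted p under 0.05 there were 0 members, against 1.72% (small intestine) and 4.22% (colon) of all genes.

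Relative to C1q, Cx3cr1 was lower after LPS with no overlap in 2 of 5 comparisons, leaving out the one that chose the set. Counts were set against the sum of C1qa, C1qb and C1qc in the same library. This ratio was chosen after the values were seen and was not tested. Per 1000 C1q counts, Cx3cr1 at 2 h in the small intestine was at 58.9 to 102 after PBS and 0 to 51.0 after LPS, and the groups did not overlap. In the 2 h colon it was at 107 to 189 after PBS and at 1.35, 2.23, 16.4 and 200 after LPS, with 1 LPS library above the PBS range. At 24 h in wild-type colon it was at 74.6 to 121 after PBS and 0 to 24.7 after LPS, with no overlap. Its LPS mice 3, 8, 13 and 16 and PBS mice 14, 19, 22 and 24 were also in the comparison that chose the set. In Gpr37-/- small intestine Cx3cr1 was at 50.8 to 100 after PBS and 0.299 to 54.5 after LPS, and only mouse 11 reached the PBS range. In Gpr37-/- colon the ranges were 25.1 to 135 and 0 to 31.1. In wild-type small intestine, where the low Cx3cr1 level chose the set, they were 2.90 to 114 and 0 to 0.785.

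Fcrls per 1000 C1q counts at 24 h was at 17.9 to 42.6 after PBS and 0 to 0.141 after LPS in wild-type colon. It was at 14.6 to 85.5 against 0 to 7.93 in Gpr37-/- small intestine, PBS first and with no overlap. In Gpr37-/- colon the ranges were 8.69 to 97.6 and 0 to 9.21, and in wild-type small intestine 4.83 to 145 and 0 to 7.47. Csf1r per 1000 C1q counts was at 231 to 383 against 71.8 to 146 in Gpr37-/- small intestine and at 122 to 355 against 21.3 to 107 in Gpr37-/- colon, without overlap. In that small intestine Csf1r itself was not lower, with a mean of 91.4 CPM after LPS and 61.9 CPM after PBS, while mean C1qa was at 385 and 95.0 CPM and mean C1qb at 389 and 68.3 CPM. In that colon Csf1r was at 6.26 to 64.3 CPM after LPS and 12.0 to 158 CPM after PBS, and C1qa at 62.3 to 362 and 26.0 to 481 CPM, the highest PBS library of both being mouse 7. In wild-type mice the Csf1r ranges overlapped, at 65.7 to 383 against 65.7 to 177 in the small intestine and 108 to 175 against 47.5 to 129 in the colon. The shares of the C1q genes also differed between PBS and LPS libraries. C1qc made up 23.6 to 30.4% of C1q counts after PBS and 15.1 to 17.5% after LPS in wild-type small intestine at 24 h, and 25.2 to 29.7% and 12.8 to 21.3% in wild-type colon. In Gpr37-/- mice the shares were 23.2 to 26.6% and 15.0 to 22.8% in the small intestine, and 24.7 to 28.9% and 18.3 to 26.4% in the colon, where they overlapped. At 2 h the shares overlapped.

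**Figure D5:**
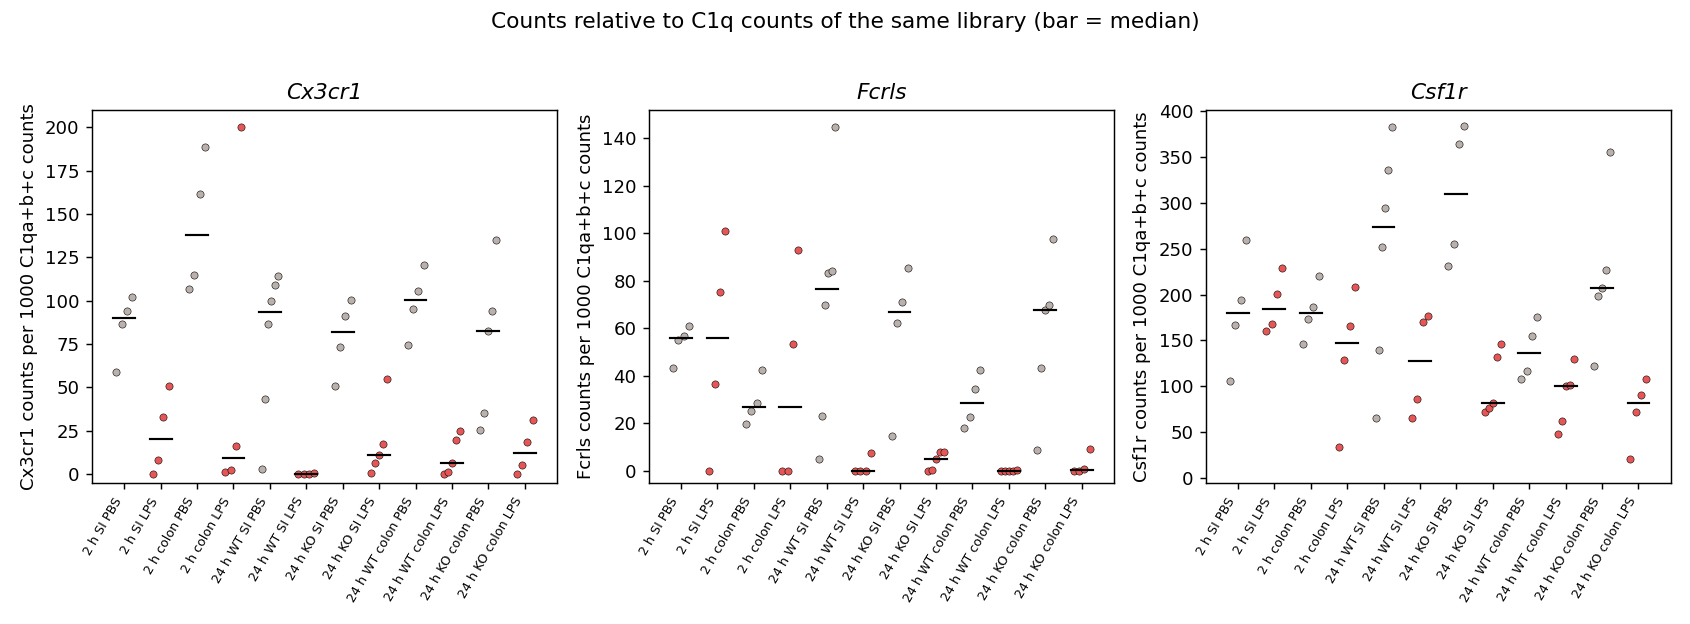
Counts of Cx3cr1, Fcrls and Csf1r per 1000 counts of C1qa, C1qb and C1qc together, in each PBS and LPS library at 2 h and 24 h. Fcrls at 24 h lies at 0 to 9.21 in all LPS groups, and at 4.83 to 145 in the PBS groups.

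Some markers of blood-derived cells were higher after LPS at 24 h. Of the 9 neutrophil genes tested, 2 rose in wild-type colon, 1 in Gpr37-/- small intestine and 2 in Gpr37-/- colon. Of all genes 7.96%, 0.718% and 0.718% were called there, in the same order. Wild-type small intestine is given with no test. The summed neutrophil level was 21.8 to 874 CPM in its LPS libraries and 2.26 to 24.6 CPM in the PBS ones. The summed level of the monocyte genes was 344 to 839 CPM against 64.6 to 271 CPM there. Of these genes Ccr2 was not higher, at 0 to 4.10 CPM after LPS and 0 to 20.0 CPM after PBS. The part of such cells in the members' values was not tested. Among resident macrophage genes, Gas6, a ligand for the clearance of dying cells, fell in wild-type colon by 2.21 on the log2 scale (edgeR adjusted p = 0.0185). Of the shared myeloid genes, Cd14, the LPS co-receptor, rose by 3.06 in Gpr37-/- small intestine (edgeR adjusted p = 0.0351). In wild-type small intestine, given with no test, its mean level was 80.3 CPM after LPS and 11.3 CPM after PBS.

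Among the members other than Lyve1, levels went up and down together in the untreated libraries. In these, which span both plexuses, each member's median Spearman's rho with the other 8 was between 0.84, for Cd163, and 0.97, for Csf1r, over 22 libraries. Within the 11 myenteric libraries alone it was 0.69 to 0.91 and within the 11 submucosal ones 0.80 to 0.97. In the 37 libraries at 24 h, all myenteric, it was 0.21 for Fcrls and 0.39 for Cx3cr1, and up to 0.72 for C1qc, with the lowest single rho, -0.12, between Fcrls and C1qb. In the 16 libraries at 2 h the range was 0.45, for Cx3cr1, to 0.81, for C1qa. Over all 3 experiments the genes most alike in pattern were Lyz2, Pld4, Laptm5, Adgre1 and Tnfaip8l2, of 12807 compared. Lyz2, the lysozyme of macrophages and other myeloid cells, had rhos of 0.99, 0.81 and 0.78 with the members' mean level in the untreated, 2 h and 24 h libraries, and Adgre1, the macrophage marker F4/80, had 0.98, 0.76 and 0.74. These rhos carry no test, because the libraries share groups, depth and the mix of cells.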

How the data were processed

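RNA was measured by Smart-seq2 RNA-seq, which has no molecular identifiers, so floors cover counting error only, while SEs and p-values come from fits that include the spread between libraries. The authors deposited raw counts per gene symbol in 2 tables with 1 column per library, all 75 of which were used. The unit was taken from the deposited values, which are whole numbers with unequal totals. Per the submitters' processing notes, Trim Galore 0.4.4, STAR 2.5.3, DESeq2 and the GRCm38 build were used. The gene counter and its use of strand are not given in the sources used here. Csf1r shares exon sequence with Hmgxb3 and Cx3cr1 with Gm33858, so reads there are uncertain.

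Samples were grouped by the labels. Each experiment was fitted within its own table, with all its groups in 1 model without covariates, in R 4.3.3 with edgeR 4.0.16 (filterByExpr, TMM factors, quasi-likelihood F-test, Benjamini-Hochberg adjustment over all genes, threshold 0.05). The filter left 14090, 13107 and 14903 genes in 22, 16 and 37 libraries, and all 10 members passed it in each. There were 19 comparisons. CPM are the deposited counts scaled to equal TMM-adjusted library totals by edgeR's cpm function. CPM per kilobase divides by the exon union of GENCODE vM21. A floor is 3 counts, which is 0.0933 to 1.46 CPM over the libraries. Fold changes use edgeR's fitted coefficients, and correlations use log2 CPM with a prior count of 2. The labels do not say for the untreated and 2 h experiments that libraries came from separate animals, so p-values measure the spread between these samples, which may be technical in part.

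The members and gene lists were chosen with earlier results of these data known. Named were all 10 members, and of the other lists called genes with the largest fold changes whose groups did not overlap, besides the genes of the library checks, which were chosen after values were seen. Some genes of these lists are not reported here. Alternatives were DESeq2 1.42.0, other scaling, no filter, sex as a covariate, fits of the compared groups only, a replicate block, mouse number, and each library left out. The test was also run on simulated counts. With 100 genes changed by a log2 fold of 2 and 100 by 4, it called 56% and 82% in the untreated small intestine plexus comparison, over 13893 genes. It called 21% and 54% for LPS in the 2 h small intestine, over 12689 genes, and 38% and 70% for LPS in the 24 h wild-type small intestine, over 14691 genes.

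In the 24 h PBS comparison of regions, libraries with the same mouse number were taken as from the same animal, with 4 pairs per genotype. For Gpr37-/- small intestine mouse 7 the number was read from the library's description only. Wild-type LPS mice 3, 8, 13 and 16 also gave both regions, and the main fits did not use that pairing. In the PBS pairs the deviations correlated with a mean r of 0.0914 in wild-type and 0.120 in Gpr37-/- mice. The block by mouse changed no member's call between regions after PBS. Promoter windows are RefSeq sequences of GRCm38.p6 and were found for 7 of 10 members.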

Additional observations from a re-analysis of the deposited data

Results flagged for a closer look

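Of 160 pairs of a member and a group of 4 to 6 libraries, 24 had 1 library far from the rest of its group by Dixon's criterion, and all 24 were high. Chance sets about 1 in 20 groups apart, and members of one library share their macrophage content, so these are not independent. CPM cannot fall below 0 and their spread is skewed, which favours high values, so that rate need not hold here.

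Wild-type LPS colon mouse 3 at 24 h accounted for 7 of them. It had Fcrls at 0.236 CPM, the only value above 0 in its group and itself 1 count, under the floor, Csf1r at 170.0, C1qa at 638, C1qb at 744, C1qc at 286, Cd163 at 39.9 and Cd68 at 108 CPM. Gpr37-/- PBS colon mouse 7 was high for Fcrls at 88.1, C1qa at 481, C1qb at 444, C1qc at 377 and Cd68 at 116 CPM. The same library had Hoxa11os at 0 CPM. Mitochondrial genes took 26.0% of its counts, the top of the 1.66 to 26.0% of the 24 h libraries.

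In Gpr37-/- LPS small intestine, mouse 11 had Cx3cr1 at 96.8 and Fcrls at 13.8 CPM. In Gpr37-/- LPS colon, mouse 17 had Fcrls at 1.95 and mouse 2 had Csf1r at 64.3 CPM. Fcrls was at 8.57 CPM in wild-type LPS small intestine mouse 8. Among 2 h libraries, PBS colon replicate 2 was high for Cx3cr1 at 127, C1qa at 262 and Cd163 at 21.4 CPM, and LPS colon replicate 3 for Cd163 at 13.6 CPM. Of the untreated libraries, small intestine myenteric F1 had Cx3cr1 at 249.7 CPM, colon submucosal F2 had Cd163 at 28.8 CPM and small intestine submucosal F2 had Cd163 at 279 CPM.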

How the results depend on the processing

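No member's direction reversed among the called results. DESeq2 called more genes than edgeR in every comparison. It called 987 against 449 genes between regions in the myenteric plexus and 3745 against 3069 between plexuses in the colon. In the untreated myenteric comparison of regions 2 members were called, and DESeq2 called 4 (Csf1r, Cd163, Lyve1 and Cd68), a fit of the compared groups only called 1 and the replicate block 1 (both Lyve1, without Cd163). In the submucosal comparison of regions 1 was called, and both the fit of the compared groups only and the replicate block called 2 (Cd163 and Lyve1). Between plexuses in the colon 8 were called, with DESeq2 all 10 (Fcrls and Mrc1 added), with the compared groups only 7 (without Cd163) and with the replicate block 0. In the 2 h PBS comparison of regions, DESeq2, the compared groups only and the replicate block each called 1 (Lyve1) in place of 0. For LPS at 24 h in wild-type small intestine DESeq2 and mice numbered 11 and above each gave 2 (Cx3cr1 and Fcrls) in place of 1, a description only, since this comparison chose the set. DESeq2 called 1 in place of 0 for LPS in Gpr37-/- small intestine (C1qb), in Gpr37-/- colon (Fcrls), and between regions in Gpr37-/- PBS mice (Lyve1). The last also had 1 with mice numbered 11 and above. The cause was not tested. In the interaction of LPS and genotype in the small intestine DESeq2 gave 1 (Cx3cr1) in place of 0, again a description only, since the values that chose the set enter it. The interaction of LPS and region in wild-type mice gave 0 also with a block by mouse, an alternative chosen after seeing the data.

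Leaving out 1 library at a time gave 1 to 3 members called between regions in the myenteric and 0 to 1 in the submucosal plexus, 6 to 10 between plexuses in the colon and 7 to 9 in the small intestine. It gave 1 to 2 for LPS in wild-type small intestine, 1 to 1 in wild-type colon, 0 to 1 between regions in wild-type PBS mice and 0 to 0 in the other 12 comparisons. The 2 in wild-type small intestine came without LPS mouse 8.

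Replicate numbers in the untreated and 2 h experiments were not taken as pairs, since not every pair of same-numbered libraries correlated above 0.1. The libraries that correlated best with their own number were 4 of 5 and 2 of 5 pairs between regions in the myenteric and submucosal plexus, 2 of 4 and 2 of 6 between plexuses in colon and small intestine, 3 of 4 and 4 of 4 for LPS at 2 h in small intestine and colon, and 3 of 4 between regions at 2 h. The block changed no other call.

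Scaling by total counts moved the median of all genes by -0.21 for LPS in wild-type small intestine, by -0.17 in wild-type colon and by -0.11 between regions in wild-type PBS mice. It flipped only values near 0, such as C1qa at 0.20 in wild-type small intestine and Fcrls at 0.03 at 2 h. With it, the share of higher among called genes went from 58.3 to 36.2% in wild-type small intestine and from 49.7 to 32.7% in wild-type colon. Groups of 4 to 6 libraries with wide spread limit these tests, and levels under the floor of 3 counts are not distinguishable from 0.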

Other observations

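Untreated female libraries had higher levels than male ones for 9 of 10 members, with 11 libraries of each sex over the 4 sites. Cx3cr1 in the submucosal plexus of the small intestine was at 153 to 210 CPM in the 3 male libraries and at 642 to 772 CPM in the 3 female ones. With sex as a covariate the male minus female log2 difference of Cx3cr1 was -1.94 ± 0.50 and that of Csf1r was -1.46 ± 0.33, with edgeR adjusted p of 0.112 and 0.0763. No member passed the test, where 0.17% of all genes did. The 11 male libraries include colon submucosal M3, which stood apart. Without it 9 of 10 members were again higher in females, Cx3cr1 differed by -1.80 ± 0.41 (edgeR adjusted p = 0.061), and 2 members passed the test, Csf1r at -1.32 ± 0.26 and C1qc at -1.41 ± 0.30 (edgeR adjusted p = 0.0315 and 0.0496), where 0.252% of all genes did. Lyve1 differed in the other direction, by 0.50 ± 0.52 with M3 and 0.28 ± 0.55 without it. At 2 h 6 of 10 members and at 24 h 2 of 10 were higher in females, with 0 called. The comparison was made after the values were seen, and the libraries of one sex may also share days or litters that the labels do not give.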
